A study of Mus musculus with 4 samples.

Results

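The cells described here are conventional CD8 T cells that carried Foxp3 mRNA, 231 of the 11015 conventional CD8 cells (2.10%) and of the 36140 cells that passed the filter in all 4 libraries. A cell was conventional when the log2 ratio of its CD45.1 to its CD45.2 antibody counts, each plus 1, was above 2.2, and CD8 when it held more UMIs (unique molecules counted) of Cd8a plus Cd8b1 than of Cd4. It was a member when it also held at least 1 Foxp3 UMI, so the cells were selected on Foxp3, Cd4, Cd8a, Cd8b1 and the antibody counts, which are given below as a description. The members numbered 25, 105, 52 and 49 in the libraries called WT, CD226KO, TIGITKO and DoubleKO, the order kept for every set of 4 values.

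Foxp3 is the forkhead transcription factor that defines regulatory T (Treg) cells, which restrain other T cells through CTLA-4, capture of IL-2 by its high-affinity receptor, and release of TGF-beta. Most Foxp3-expressing cells are CD4 cells, but CD8 cells can also switch the gene on, above all after activation in the presence of IL-2 and TGF-beta. Such CD8 cells have been described in graft-versus-host disease, where donor T cells attack the tissues of the recipient, and in mice they are known to be short-lived and to retain parts of the killer programme.

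All 4 groups came from the same model. BALB/c recipients received 900 cGy of irradiation, C57BL/6 bone marrow carrying both CD45.1 and CD45.2 and depleted of T cells, and CD4+ Foxp3-GFP+ CD25hi Treg cells from CD45.2+ mice, followed 2 days later by CD45.1+ wild-type C57BL/6 CD4 and CD8 conventional T cells from which Treg cells had been depleted. The Treg donors were CD226+/+ TIGIT+/+ (WT), CD226-/- TIGIT+/+ (CD226KO), CD226+/+ TIGIT-/- (TIGITKO) or CD226-/- TIGIT-/- (DoubleKO), so the conventional cells were wild type in all 4 groups, which differ in the Treg cells given with them. Origin was assigned to each cell by the antibody ratio alone. Live donor T cells (H-2Kb+ TCRb+) were sorted from spleen on day 8, with 3 pooled per sample and 1 library per genotype. A genotype therefore has no replicate, and no test between genotypes was made. Tests below set members against other cells within each of the 4 libraries, so n = 4 libraries, and p-values measure the spread between libraries that also differ in Treg genotype. WT and CD226KO were sequenced in lane 3 and TIGITKO and DoubleKO in lane 4, so lane and TIGIT status cannot be told apart.

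Among conventional CD8 cells, those with a Foxp3 UMI made up 1.19% (95% exact binomial interval 0.773 to 1.75) in WT, 4.04% (3.31 to 4.87) in CD226KO, 1.79% (1.34 to 2.34) in TIGITKO and 1.43% (1.06 to 1.89) in DoubleKO. The CD226KO interval lay above the other 3, which overlapped one another. Median depth of these CD8 cells was 11901, 10029.5, 8887 and 10015 UMIs, so CD226KO was not the deepest library. Each cell was then thinned to 2000 UMIs in 1 random draw, with 9, 14, 23 and 22 shallower cells left out. The shares were 0.335%, 1.28%, 0.521% and 0.354%. CD226KO (interval 0.880 to 1.79) again lay above the others, but narrowly (highest upper bound 0.858, in TIGITKO). The draw was not repeated, so how far this separation depends on it was not tested. These intervals hold counting error only. With 1 pool per genotype, a difference between genotypes and a difference between pools cannot be told apart.

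Conventional CD4 cells of the same libraries held a Foxp3 UMI in 1.53%, 0.839%, 0.677% and 0.675% of cells. Their median depths were 9013, 8055.5, 7039.5 and 7785 UMIs. The CD8 share was higher in 3 of 4 libraries, by 1.18 ± 1.48 percentage points on average (SD, n = 4; exact sign-flip permutation test, two-sided p = 0.25, where 0.125 is the smallest p that 4 libraries allow). After thinning, CD8 was higher in 2 of 4 (p = 0.5, same exact test). WT was the library in which CD4 cells held Foxp3 more often than CD8 cells before thinning. Among Treg-origin CD4 cells, taken at an antibody ratio below -1, the share was 26.7%, 31.4%, 22.6% and 21.4%. As background, 0 of 82 barcodes that lacked Cd3, Cd4 and Cd8 transcripts and held at least 5 UMIs of B, macrophage, neutrophil or erythroid markers held a Foxp3 UMI, which allows a share of up to 3.66% and is too few to bound free RNA at the level of the CD8 shares (median depth 3392.5 to 6720.5 UMIs per library).

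**Figure D1:**
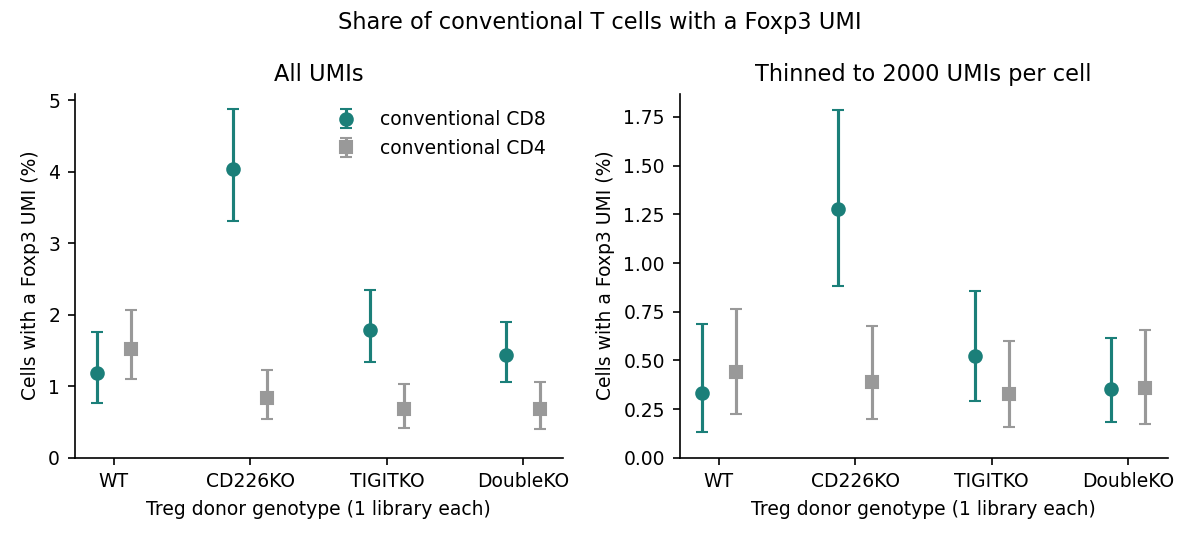
Percent of conventional CD8 (circles) and conventional CD4 cells (squares) with a Foxp3 UMI in each library, with all UMIs at left and after thinning to 2000 UMIs per cell at right; bars are exact 95% binomial intervals. The CD226KO library has the highest CD8 share in both panels (4.04% and 1.28%).

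Members carried more than a single stray Foxp3 molecule in about as many cells as not. Of the 231, 120 (51.9%) had at least 2 Foxp3 UMIs, in 11, 54, 26 and 29 cells, 68 had at least 3, and the highest cell had 4, 6, 5 and 6. In CPM, the UMIs of a gene scaled to all UMIs of the summed cells, Foxp3 over the members stood at 78.4, 151, 140.1 and 138 CPM, which is what the rule selected. The value in WT was the lowest, and WT members were also the deepest, at a median of 17130 UMIs against 11498, 10298 and 10825. Because deeper cells are more likely to show a rare transcript, 10 Foxp3-0 conventional CD8 cells (no Foxp3 UMI) of the same library were matched to each member by total UMIs, and the contrast of members with other CD8 cells below uses these 2310 matched cells, with medians of 17143.5, 11486.5, 10296 and 10817 UMIs.

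By the rule, members carried the surface protein of the conventional donor. Median CD45.1 counts were 594, 567, 393 and 582 in members and 501.5, 477.5, 329.5 and 453.5 in matched cells. Median CD45.2 counts were 53, 51, 37.5 and 42 against 58, 53, 36 and 40. Cd4 was at 0 UMIs in 64%, 70.5%, 71.2% and 65.3% of members and in 66.4%, 77.7%, 78.5% and 78.4% of matched cells, so Cd4 molecules were found in a somewhat larger share of members in each library. At the edges of the rule, 23 members had a ratio of 2.2 to 2.7 while 18 Foxp3+ CD8 cells lay just outside at 1.7 to 2.2, 14 of them in TIGITKO. Over all CD8 cells with a ratio from -1 to 2.2, 107 of 1479 (7.23%) held a Foxp3 UMI, a larger share than above the cut. By library it was 4.46%, 4.18%, 9.03% and 17.9%, with CD226KO lowest and DoubleKO highest. The order of the libraries in Foxp3 share thus depended on the ratio, and the cause was not tested. Another 9 members led by 1 Cd8 UMI, and 86 conventional cells with Foxp3 had equal Cd4 and Cd8 counts and were left out.

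The donors also differed in transcripts of the sex chromosomes, a measure the rule did not use. Xist, the RNA that silences 1 X chromosome in female cells, was found in 131 of 145 Foxp3+ Treg-origin cells (90.3%), in 15 of 231 members (6.49%; 3, 2, 3 and 7 cells) and in 37 of 2310 matched cells (1.60%). Summed Xist was 18.8, 4.2, 6.02 and 46 CPM in members and 781, 760.0, 961 and 679 CPM in the Treg-origin cells. Of the 15 members with Xist, 13 also held a Y-linked UMI, a combination of male and female transcripts in 1 droplet, and 2, both in DoubleKO, held none. Xist was called higher in members than in matched cells (log2 fold 1.98, edgeR adjusted p = 0.00484), most clearly in DoubleKO, without which the call was lost (edgeR adjusted p = 0.378). With DESeq2 it was not called (adjusted p = 0.520). Without the cells that held Xist, the contrast below still called 341 genes higher and 260 lower. No barcode of a member was shared between libraries, while 16 to 27 barcodes of the kept cells were shared per pair. No doublet caller was run.

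Foxp3+ CD8 cells differed from their matched neighbours in 353 genes that were higher (3.72% of 9482 tested) and 287 that were lower (3.03%), together 6.75% at an adjusted p of at most 0.05 (edgeR quasi-likelihood test on sums per library with the library as block, Benjamini-Hochberg adjustment, rule genes left out). Of these, 297 and 256 moved the same way in all 4 libraries, and the median log2 fold over all tested genes was -0.0018. DESeq2, which scales, tests and filters the sums differently, called 166 higher and 62 lower among 8010. The CD226KO library holds 105 of the members, and without it the counts were 173 and 94. Leaving out TIGITKO gave 216 and 113, and leaving out DoubleKO gave 249 and 124. Members that held no UMI of the B, macrophage, neutrophil or erythroid lists, with the widespread Ighm, Igkc, Cd74, Hmox1 and globin genes not counted (7, 32, 29 and 15 cells), against matched cells chosen the same way, gave 122 and 77. In sums over cells, fewer cells with a transcript and less RNA per cell cannot be told apart, so shares of cells are given beside sums below. Of the 117 called genes that are named or in a list, 14, 38, 30 and 24 lost their call without WT, CD226KO, TIGITKO and DoubleKO, and 42 lost it with DESeq2. For most genes named below that are among those lost without 1 library, the edgeR adjusted p without that library stands in the same paragraph. Losses with DESeq2 are marked below for only some of the genes.

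**Figure D2:**
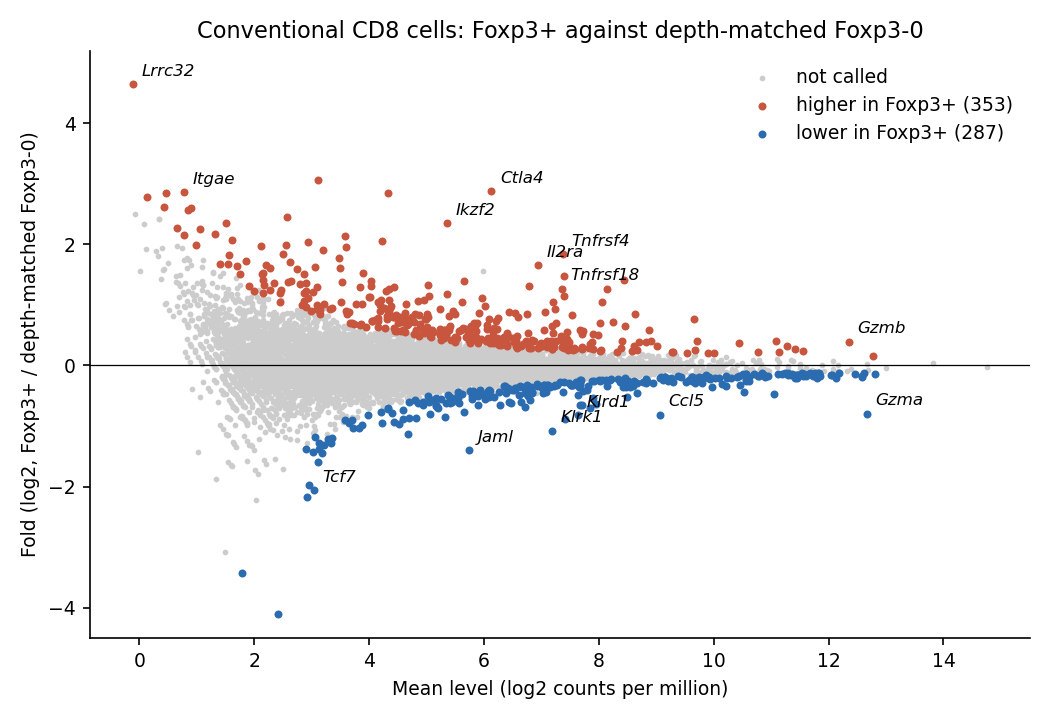
Log2 fold of every tested gene in Foxp3+ over depth-matched Foxp3-0 conventional CD8 cells (vertical) against its mean level in log2 CPM (horizontal), with genes called higher in red, called lower in blue and the genes used by the rule left out. Treg-associated genes such as Ctla4 and Ikzf2 lie far above 0, and Klrk1, Jaml and Gzma lie below.

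The genes of Treg identity formed the group with the most calls in 1 direction. Of its 31 members 25 could be tested, 14 were higher, 0 were lower, and the median log2 fold was 1.13 against -0.0018 over all genes. This list and the gene lists below, like Foxp3 and Ikzf2 as markers of the cells, were chosen with earlier results of these data known. Their counts are therefore a description, to be read beside the 3.72% of all tested genes called higher and 3.03% called lower. Ctla4, the receptor that competes with CD28 for B7 ligands, stood at 191, 217, 148 and 257 CPM in members and at 20.9, 26.4, 33 and 27.2 CPM in matched cells. The groups did not overlap: the lowest member sum was over 4 times the highest matched sum. The share of all tested genes without overlap is not given, so missing overlap, here and below, only describes genes already called. The mean log2 ratio per library, with 1 CPM added, was 2.86 ± 0.50 (SD, n = 4), and the fitted log2 fold was 2.88 (edgeR adjusted p = 2.88e-16). A Ctla4 UMI was present in 72.7% of members and 22.7% of matched cells.

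Ikzf2 encodes Helios, an Ikaros-family factor that stabilises the Treg state. It stood at 71.6, 118, 111 and 156 CPM against 24.3, 22, 24.2 and 18.2 CPM. All 4 member sums were higher than all 4 matched sums, with DoubleKO highest and WT lowest (mean log2 ratio 2.27 ± 0.62, SD, n = 4; edgeR adjusted p = 2.20e-12). Il2ra, the alpha chain of the high-affinity IL-2 receptor (CD25), was at 145, 246, 232 and 311 CPM against 84.7, 52.1, 88.5 and 75.7 CPM. Its groups did not overlap either, and WT had the smallest difference (log2 fold 1.66, edgeR adjusted p = 4.86e-10). Il2ra was detected in 81.8% of members and in 40.5% of matched cells.

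Other genes of the list ranged from rare to abundant. Lrrc32 encodes GARP, which holds latent TGF-beta on the cell surface. It was found in 13 members (5.63%) and in 0.173% of matched cells, at 5.12, 2.1, 3.01 and 6.57 CPM against 0.189, 0, 0 and 0.414 CPM (log2 fold 4.65, edgeR adjusted p = 0.0015). Itgae, the alpha-E integrin chain CD103 that binds E-cadherin, had 20 UMIs in 13 members (log2 fold 2.87, edgeR adjusted p = 0.002), so both genes rest on few molecules. Capg, an actin-capping protein abundant in Treg and effector cells, was at 269, 455, 402 and 462 CPM against 156, 204, 206 and 184 CPM. Dusp4, a phosphatase of MAP kinases, was at 15.3, 37.1, 24.1 and 27.6 CPM against 6.79, 7.58, 8.77 and 8.15 CPM. For Capg and Dusp4 every member sum lay above every matched sum (log2 folds 1.04 and 1.78). Izumo1r, the folate receptor 4 of Treg cells, also rose (1.29, edgeR adjusted p = 0.00141), as did the ectonucleotidase gene Entpd1 (1.13, 0.00153), although Entpd1 was lower in the WT members than in their matched cells. Leaving out 1 library ended 2 of these calls: Itgae without TIGITKO (edgeR adjusted p = 0.104) and Entpd1 without CD226KO (0.295). Of the 11 tested genes that were not called, Ikzf4 (Eos) had a log2 fold of 1.52 (edgeR adjusted p = 0.0589), Il10 of 0.85 (0.127), Tgfb1 of 0.23 (0.206) and Nrp1 of -0.18 (0.622). Gpr83 had no UMI in any member.

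**Figure D3:**
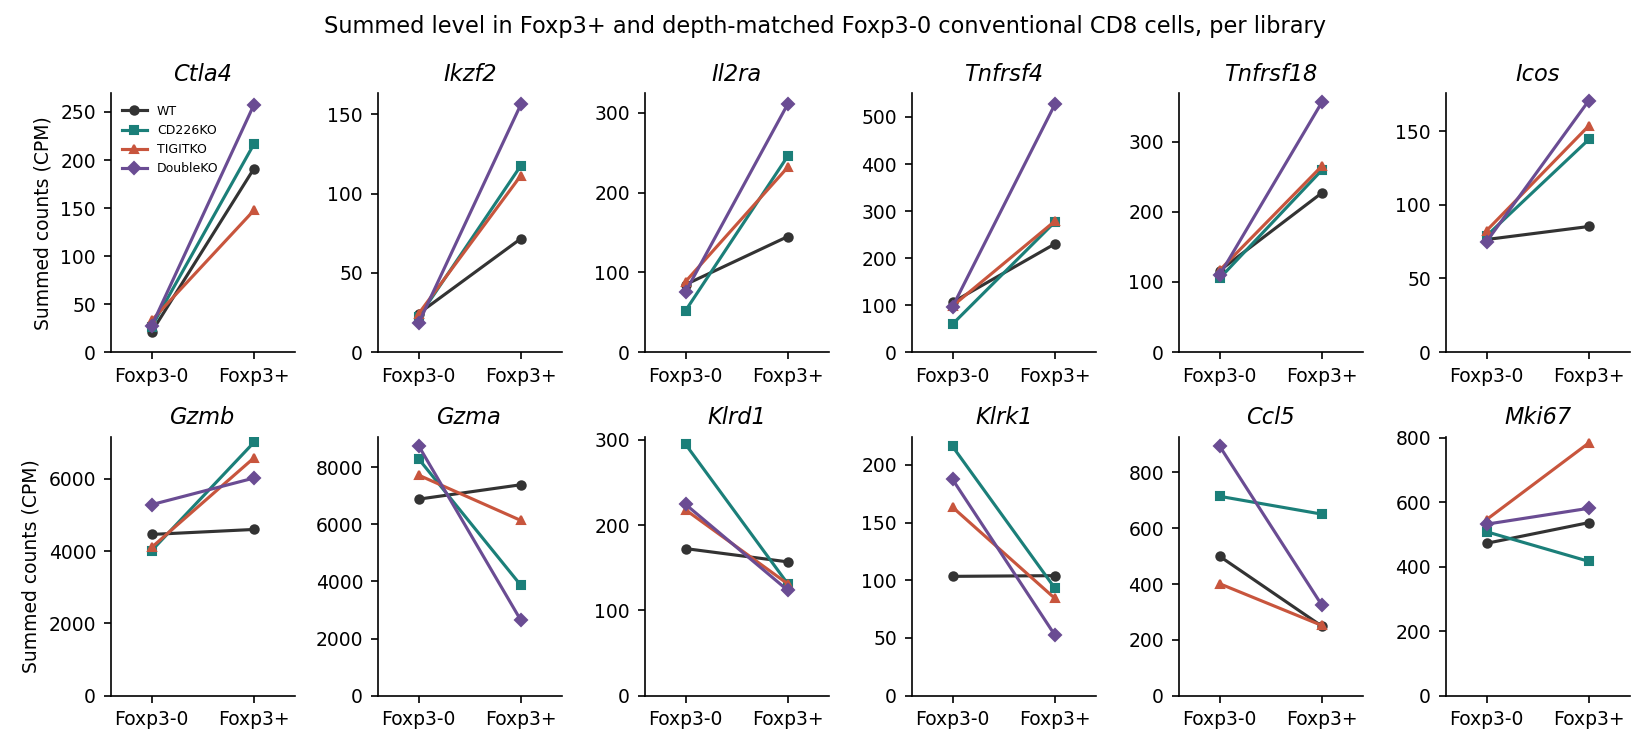
Summed CPM of 12 genes in depth-matched Foxp3-0 (left of each panel) and Foxp3+ (right) conventional CD8 cells, with 1 line per library. For Ctla4, Ikzf2, Il2ra, Tnfrsf4 and Tnfrsf18 every line rises, Gzma and Klrk1 fall in 3 of 4 libraries, and Mki67 goes both ways.

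Costimulatory receptors of the TNF receptor and CD28 families were mostly higher. Of 13 tested, 8 were higher and 1 lower, with a median log2 fold of 0.58. Tnfrsf4, which encodes OX40, stood at 230.2, 277, 279 and 527 CPM against 106, 59.7, 98.2 and 96.6 CPM. DoubleKO members were the highest and no member sum reached down to a matched sum (log2 fold 1.84, edgeR adjusted p = 1.19e-11). Tnfrsf18, which encodes GITR, was at 227, 259, 265 and 356 CPM against 116, 105, 116 and 109.6 CPM (log2 fold 1.27, edgeR adjusted p = 2.02e-11), again without overlap. Tnfrsf1b, a TNF receptor enriched on Treg cells, and Tnfrsf9, the activation receptor 4-1BB, rose by log2 folds of 1.33 and 1.05. Icos was at 85.3, 144, 154 and 171 CPM against 76.4, 78.9, 82.4 and 75 CPM. The WT members exceeded their matched cells by far less than the other 3 libraries did. Cd27, Cd28 and Cd2, receptors that aid T cell activation, had log2 folds between 0.40 and 0.58. Cd226, the activating receptor missing from the Treg cells of CD226KO and DoubleKO but intact in these conventional cells, was the one that fell: 75, 53.3, 81.3 and 55.2 CPM in members against 82.3, 101, 98.3 and 96.6 CPM in matched cells (edgeR adjusted p = 0.00129). Without CD226KO the edgeR adjusted p values were 0.075 for Cd226, 0.075 for Cd27 and 0.231 for Cd28, so these calls were lost. Their log2 folds kept their signs (-0.45, 0.36 and 0.27). CD226KO holds 105 of the 231 members, so fewer cells and dependence on that library cannot be told apart.

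Of 20 genes induced through the IL-2 receptor and STAT5, 10 were higher, 1 was lower and 9 were not called, with a median of 0.52. Besides Il2ra these included the feedback inhibitors Socs2 (log2 fold 1.53), Socs1 (0.77), Socs3 (0.64) and Cish (0.73), the kinase gene Pim1 (0.73) and the cyclin gene Ccnd2 (0.71). Socs2 was at 44.3, 26.6, 36.1 and 31.5 CPM against 16.6, 9.21, 9.38 and 11.6 CPM. Its member sums all exceeded its matched sums (edgeR adjusted p = 9.45e-07). Il2rb, the receptor chain that signals for IL-2 and IL-15, was at 447, 502, 465 and 527 CPM against 379.9, 344, 377 and 355 CPM (edgeR adjusted p = 1.49e-04). The survival gene Bcl2 fell (log2 fold -0.60, edgeR adjusted p = 0.00362; 0.199 without CD226KO). Socs3 lost its call without TIGITKO (0.162) and without DoubleKO (0.101).

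The killer programme was neither lost nor kept as a whole. Among 15 tested cytotoxicity genes 4 were higher, 6 lower and the median was 0.10. Gzmb, the granzyme that activates caspases in the target, was at 4601, 7011, 6581 and 6024 CPM against 4463, 4013, 4103 and 5288 CPM. It was higher in all 4 libraries, but by little in WT (log2 fold 0.39, edgeR adjusted p = 3.10e-04), and it was found in nearly every cell of both kinds (98.3% and 98%). Gzma, a tryptase granzyme, was at 7381, 3860, 6131 and 2636 CPM against 6877, 8289, 7718 and 8746 CPM. It fell in CD226KO, TIGITKO and DoubleKO and was slightly higher in WT, so the groups overlap (log2 fold -0.80, edgeR adjusted p = 4.73e-04). Srgn, the proteoglycan core that packs granzymes, and Cst7, an inhibitor of granule cathepsins, rose by 0.76 and 0.56 with no overlap between groups. Prf1, the pore-forming perforin, had a log2 fold of 0.57 (edgeR adjusted p = 0.0124) and was highest in CD226KO: 126, 480.0, 221 and 221 CPM against 147, 173, 173 and 185 CPM, with WT lower. Its call was lost without CD226KO (edgeR adjusted p = 0.648) and without TIGITKO (0.0719). Gzmk and Gzmm (-0.68 and -0.86), and the protease inhibitors Serpinb9 and Serpinb6b that shield killer cells from their own granzymes (-0.66 and -0.53), fell. Gzmk was not called without TIGITKO (0.0719) or DoubleKO (0.0873), nor Gzmm without CD226KO (0.496) or DoubleKO (0.0679). With DESeq2 none of Gzma (adjusted p = 0.315), Gzmb (0.449), Prf1 (0.823), Gzmk (0.403) and Gzmm (0.195) was called.

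Among NK-type receptors of CD8 effector cells, Klrc1, Klrd1, Klrk1, Klrc2 and Klre1 were lower. Of 10 tested genes in the list of receptors described on regulatory and NK-like CD8 cells, 5 were lower and 2 higher, with a median of -0.85. Klrk1 encodes NKG2D, the receptor for stress-induced ligands. It stood at 104, 93.2, 84.3 and 52.5 CPM against 103, 216, 163 and 187 CPM. In WT the values were close, and in the other 3 libraries members were lower (log2 fold -1.08, edgeR adjusted p = 9.08e-06; DESeq2 0.145). Klrd1 (CD94) was at 157, 131, 131 and 123 CPM against 172, 295, 218 and 224 CPM, and Klrc1, its inhibitory partner NKG2A, at 102, 108, 143 and 89.3 CPM against 148, 243, 193 and 184 CPM. Both were lower in all 4 libraries without overlap (edgeR adjusted p = 5.12e-06 and 1.08e-06). In the fewer cells without markers of other cells Klrd1 had a log2 fold of -0.66 and was not called (edgeR adjusted p = 0.146). Klrc2 and Klre1 lost their calls without CD226KO (edgeR adjusted p = 0.608 and 0.278) and without DoubleKO (0.119 and 0.128), and Klre1 also without WT (0.0732). Il2rb and Klrg1, a receptor of late effector and of tissue Treg cells, were the 2 that rose. Klrg1 was at 49.5, 29.4, 30.1 and 23.6 CPM against 22.6, 15.7, 18.6 and 9.53 CPM (log2 fold 0.95). The Ly49 genes Klra1, Klra3, Klra5, Klra6, Klra8 and Klra9, used to mark regulatory CD8 cells, were too low to test. The 1 Ly49 gene of the list that could be tested, Klra7, was at 0, 7.71, 4.52 and 1.31 CPM against 3.96, 9.71, 5.9 and 10.9 CPM and was not called (edgeR adjusted p = 0.152).

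Inhibitory receptors split. Of 16 tested, 5 were higher and 3 lower, with a median of 0.19. Lag3, which binds MHC class II, was at 87, 181, 123 and 149.7 CPM against 60.6, 73.7, 75.6 and 85 CPM and rose together with Ctla4, Entpd1, Nr4a2 and Tox. Lag3 was higher in each library with no overlap (edgeR adjusted p = 1.48e-06), whereas Tox was higher in 2 of 4 libraries. Pdcd1, which encodes PD-1, was lower in all 4: 97.2, 111, 117 and 109 CPM against 119, 159, 131 and 129 CPM (edgeR adjusted p = 0.0112). Cd96 and Cd160 also fell (-0.80 and -0.60). Without CD226KO the calls of Pdcd1 (edgeR adjusted p = 0.239), Cd96 (0.0603), Cd160 (0.0797), Nr4a2 (0.393) and Tox (0.294) were lost. Without TIGITKO those of Cd160 (0.0623) and Nr4a2 (0.0934) were lost, and without DoubleKO that of Tox (0.551).

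The partner list shows how far the change in Ikaros genes and Foxp3 cofactors went. Of 24 tested, 6 were higher, 0 lower, and the median was 0.11. Ikzf3 (Aiolos) was at 59.7, 87.6, 61.7 and 88 CPM against 43.8, 46, 45.8 and 53.6 CPM, with all members above all matched sums (log2 fold 0.65, edgeR adjusted p = 4.64e-04). Gata3 and Foxo1, factors that support Foxp3 in Treg cells, rose by 0.40 and 0.58, and the TCR-induced nuclear receptors Nr4a1 and Nr4a2 by 1.51 and 1.01. Without TIGITKO the edgeR adjusted p of Gata3 was 0.134 and that of Foxo1 0.0947, and without CD226KO that of Nr4a1 was 0.39. Ikzf1 (-0.04), Runx3 (-0.02), Stat5b (0.15) and Foxp1 (0.03) were not called. Runx3 and Foxp1 are, respectively, the factor that fixes the CD8 lineage and a close relative of Foxp3.

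Genes of the TGF-beta pathway were mixed, with 5 of 15 higher, 1 lower and a median of 0.23. The feedback inhibitors Smad7 and Pmepa1 rose (0.72 and 2.59), the first at 34.1, 40.6, 30.1 and 32.8 CPM against 21.3, 21.9, 18.3 and 21.3 CPM. Pmepa1 had 20 UMIs in 17 members. Without cells holding markers of other cells, Smad7 had a log2 fold of -0.021. Leaving out CD226KO gave Smad7 an edgeR adjusted p of 0.102, and leaving out TIGITKO gave Pmepa1 0.218. Cxcr6, a chemokine receptor of resident effector cells, fell from 235, 300.4, 301 and 265 CPM to 193, 184, 196 and 164 CPM, with every member sum below every matched sum (edgeR adjusted p = 2.58e-06).

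Among genes of naive and memory cells, 3 of 13 were higher and 4 lower, with a median of -0.19. Tcf7, which encodes TCF-1 of naive and memory cells, had 7 UMIs in all members, at 5.12, 0.701, 3.01 and 1.31 CPM against 9.44, 9.71, 4.24 and 9.39 CPM (log2 fold -2.06, edgeR adjusted p = 0.00542; 0.216 without CD226KO). Il7r and Slamf6 rose (0.59 and 0.53) while Klf2, Bcl2 and Ly6c2 fell. Klf2 lost its call whichever library was left out (lowest edgeR adjusted p 0.0529), Il7r without WT (0.0635) or DoubleKO (0.0511), Slamf6 without CD226KO (0.0962) and Ly6c2 without TIGITKO (0.0902). Jaml, a junctional adhesion receptor of T cells, dropped from 43.2, 67.5, 60.8 and 65.2 CPM to 27.3, 21, 33.1 and 17.1 CPM, with no overlap (log2 fold -1.40, edgeR adjusted p = 1.30e-06). Of 25 proliferation genes, 0 were higher and 6 lower, with a median of -0.16. The 6 were Rrm2, Mcm3, Mcm5, Mcm7, Stmn1 and Hmgb2, mostly genes of DNA replication, with log2 folds from -0.46 to -0.16. Mcm3 and Stmn1 lost their calls whichever library was left out (highest edgeR adjusted p 0.162 and 0.323), and Mcm5 without CD226KO (0.0566) or TIGITKO (0.109). Mki67 (0.09) and Top2a (0.09) were not called.

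Cytokine genes need a reading cell by cell. Of 20 tested Th1 and inflammatory genes 7 were higher and 1 lower, but a single member supplied 78.8% of the Csf2 UMIs, 77.4% of Il2, 39% of Ifng, 34.5% of Tnf, 27.1% of Ccl3 and 24.5% of Ccl4. Ifng, the defining cytokine of type 1 cells, was at 1153, 179, 1238 and 118 CPM against 158, 167, 175 and 216 CPM. Members were far higher in WT and TIGITKO and near or below matched cells in the others (log2 fold 1.42, edgeR adjusted p = 0.00578; 0.166 without WT and 0.312 without TIGITKO), while the share of cells with an Ifng UMI was 41.6% in members and 49.5% in matched cells, the other way round. Csf2 was found in 7 members and Il2 in 10, and both lost their call without WT (0.376 and 0.135). Ccl4 lost its call without TIGITKO (edgeR adjusted p = 0.0912). Cxcr3, the receptor for interferon-induced chemokines, was spread over 76.6% of members and rose in all 4 libraries (0.37, edgeR adjusted p = 0.0132; 0.317 without CD226KO and 0.0595 without TIGITKO). Ccl5, the chemokine of effector and memory CD8 cells, fell from 499.6, 714, 401 and 894 CPM to 249, 650.3, 252 and 324 CPM and was lower in each library (edgeR adjusted p = 1.63e-05). With DESeq2 none of Ccl5 (adjusted p = 0.0802), Ifng (0.737), Csf2 (0.820), Il2 (0.812), Ccl3 (0.432), Ccl4 (0.731) and Cxcr3 (0.0974) was called.

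A few called genes were in the lists of interferon, activation, metabolic, homing and stress genes. Over all tested genes 3.72% were called higher and 3.03% lower. Of 17 interferon-response genes 5 were higher and 0 lower (median 0.29): Ifi27l2a (0.86), Isg20 (0.93), Gbp2 (0.82), Igtp (0.43) and Zbp1 (0.36). Igtp lost its call without WT, TIGITKO or DoubleKO (highest edgeR adjusted p 0.167) and Zbp1 without CD226KO (0.0717). Among 17 genes of T cell receptor activation 4 rose, including Nfkbia (0.94) and the retention receptor Cd69 (0.59), and Cd44 fell (-0.60; edgeR adjusted p 0.172 without CD226KO). Cd69 had a log2 fold of -0.050 in cells without markers of other cells. Glycolysis genes had 2 of 18 higher: Slc16a3, a lactate exporter (1.05), and Hif1a, the oxygen-sensing factor (0.65). The median of that list was 0.06, so the list as a whole was not shifted. Homing genes had 4 of 17 higher and 3 lower, with Itgb7, the partner chain of both gut integrins, at 454, 449, 482 and 418 CPM against 357, 359.6, 356 and 324 CPM and the beta-1 chain Itgb1 lower (-0.53). Of 10 stress genes 2 were higher (Junb, Zfp36) and 2 lower (Hspa8, Hsp90aa1), with Hspa8 not called without TIGITKO (0.0798).

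**Figure D4:**
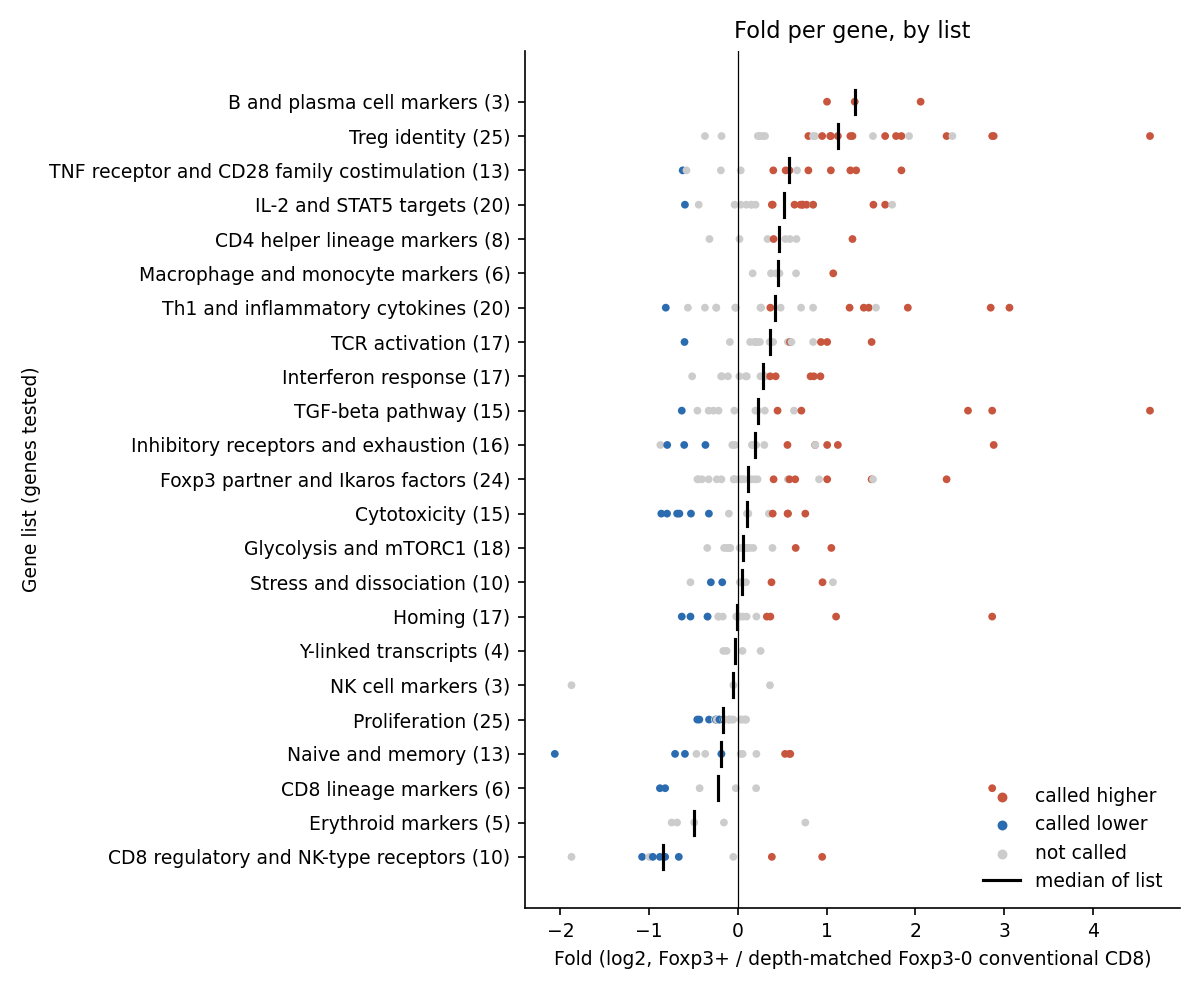
Log2 fold of each tested gene in Foxp3+ over depth-matched Foxp3-0 conventional CD8 cells, in rows by gene list with the number of tested genes in brackets; red points were called higher, blue lower, grey not called, and the black tick is the median of the list. The Treg identity list has its median at 1.13 and the list of CD8 regulatory and NK-type receptors at -0.85.

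The rest of the genes named by rank were mostly rare transcripts. The rule took the 12 largest folds in each direction among called genes that moved alike in all 4 libraries. Beside those above, the higher set held Neb (20.5, 31.5, 51.2 and 39.4 CPM against 5.66, 6.66, 9.38 and 9.66 CPM), Tnip3, an inhibitor of NF-kappaB signalling (log2 fold 2.45), Ermn (2.35), Ankrd55, Ffar2, a receptor for short-chain fatty acids, Plxnd1 and Grb7. Neb, the giant sarcomere protein nebulin, was detected in 34.2% of members and 9.09% of matched cells. Ankrd55 and Grb7 each had 15 UMIs over all members, with 1 in WT and 1 in TIGITKO, and Ffar2 had 13 UMIs in 7 members. Tnip3 had 2 UMIs in WT members, and for Tnip3 and Grb7 the member and matched sums overlapped. The lower set held Tpmt, Tcrg-C2, Palm, Bag2, Ccdc163, Ifitm10, Mir17hg, Ptprk, 1700037H04Rik and Qrfp, each with at most 15 UMIs over all members, and each of these 10 lost its call when at least 1 of the libraries was left out. So did Ffar2 without WT (edgeR adjusted p = 0.167) and Plxnd1 without CD226KO (0.129). Tcrg-C2, a constant segment of the gamma T cell receptor, was at 1.71, 1.4, 3.01 and 1.31 CPM against 6.61, 7.94, 8.77 and 7.46 CPM.

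Markers of other cells moved with the contrast and are given beside it. All 3 tested genes of the B and plasma cell list were higher: Ighm (95.5, 240.3, 163 and 256 CPM against 77, 78.3, 76.2 and 67.4 CPM), Cd79b (27.3, 36.4, 18.1 and 38.1 CPM against 12.3, 14, 16.9 and 17.3 CPM) and Igkc (0, 84.8, 27.1 and 65.7 CPM against 17, 6.95, 10.1 and 15.9 CPM). Other genes that define B and plasma cells were nearly empty in members: Pax5 and Jchain at 0 UMIs, Cd79a, Ms4a1 and Iglc2 at 1 UMI each, and Ebf1 at 2. Ighm was found in 199 of the 231 members and Igkc in 55, none of the latter in WT. Without CD226KO the edgeR adjusted p was 0.0853 for Igkc and 0.0629 for Cd79b. With DESeq2 Igkc was not called (adjusted p = 0.923). The summed level of the 10 B and plasma genes was 124.5 to 363.8 CPM in members and 99.9 to 108.7 CPM in matched cells. Of 6 tested macrophage genes 1 was higher, Cd74, the MHC class II invariant chain (log2 fold 1.08, edgeR adjusted p = 1.25e-05), and Adgre1, Marco and Ms4a7 were at 0. The 13 macrophage genes summed to 88.7 to 158.9 CPM in members and 75.7 to 99.3 CPM in matched cells. No neutrophil gene reached the level for a test, 0 of 5 erythroid and 0 of 3 NK genes were called, and CD4 helper markers had 2 of 8 higher, Izumo1r and Gata3. Whether RNA of other cells had a part in any result was not tested, apart from the counts given above for cells without such markers.

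Detection of 4 Treg-associated transcripts was also counted cell by cell. All 4 of Ctla4, Ikzf2, Il2ra and Tnfrsf4 were detected in 88 members (38.1%) and in 83 matched cells (3.59%). None of the 4 was detected in 15 members (6.49%) and in 846 matched cells (36.6%). At least 3 were detected in 56%, 68.6%, 61.5% and 71.4% of members and in 23.2%, 10.6%, 14% and 12.9% of matched cells. WT had the lowest share among members and the highest among matched cells. Members and matched cells were matched within a library on total UMIs alone. The median number of genes detected was 3739, 3191, 2990 and 3213 in members and 3759, 3069, 2874 and 2974.5 in matched cells. Members thus held more genes at like depth in CD226KO, TIGITKO and DoubleKO, and whether this adds to their shares was not tested. Each of the 4 genes was named as higher in members, so a larger joint share in members follows in part from the single genes. Whether the transcripts occurred together more often than their single shares imply was not tested.

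Members with more Foxp3 molecules had higher sums of most of these genes. From matched cells to members with 1 Foxp3 UMI and to members with 2 or more, Ctla4 went from 20.9 to 89.0 and 353 CPM in WT, from 26.4 to 201.3 and 230.2 in CD226KO, from 33.0 to 121.5 and 169 in TIGITKO and from 27.2 to 197 and 289.7 in DoubleKO. Ikzf2 and Il2ra likewise stood in this order in every library. Ikzf2 in the class with 2 or more reached 115, 132, 139 and 169 CPM. Tnfrsf4 did so in CD226KO and DoubleKO, whereas in WT the 14 members with 1 UMI were at 72.3 CPM, under the 106 CPM of matched cells, and in TIGITKO the class with 1 UMI was the highest. Gzma fell in steps in CD226KO (8289, 4290.0 and 3474 CPM) and DoubleKO (8746, 4036 and 1891 CPM) and not in WT or TIGITKO. Members with 2 or more Foxp3 UMIs were deeper than those with 1 in each library (medians 18349, 12774, 11123.5 and 13537 against 16281.5, 11152, 10143 and 8811.5 UMIs), and these values come from the count that chose the members, so they are a description.

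**Figure D5:**
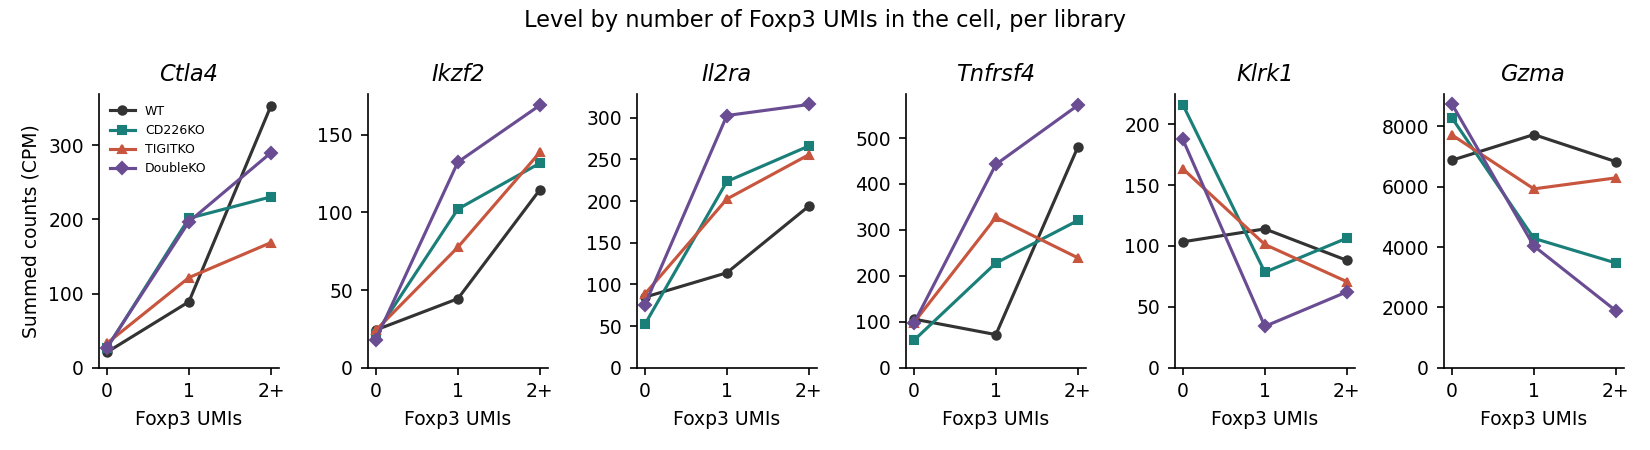
Summed CPM of 6 genes in matched conventional CD8 cells without a Foxp3 UMI (0), members with 1 and members with 2 or more, with 1 line per library. Ctla4, Ikzf2 and Il2ra rise from class to class in all 4 libraries, and Gzma falls in steps in CD226KO and DoubleKO.

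The same contrast was made in conventional CD4 cells, where 108 cells (42, 26, 21 and 19) carried Foxp3. The difference between both contrasts was tested as an interaction over 8800 genes, and 0 were called in either direction (0% of those tested; edgeR quasi-likelihood, Benjamini-Hochberg), with 240 higher in CD8 and 185 lower at an unadjusted p under 0.05. DESeq2 called 0 as well, with 125 and 111 unadjusted. Log2 folds in CD8 and CD4 cells were 2.88 and 2.79 for Ctla4, 2.35 and 2.16 for Ikzf2, 1.66 and 1.89 for Il2ra, 1.84 and 1.64 for Tnfrsf4, and -0.82 and -1.43 for Klrd1. The smallest p belonged to Gbp2, an interferon-induced GTPase, whose fold was 0.82 in CD8 and 1.67 in CD4 cells (edgeR interaction, adjusted p = 0.165), followed by Tnfsf8, AW112010, Ube2c, Lims1 and Klrg1. With 19 to 42 Foxp3+ CD4 cells per library, a missing call does not show that the 2 contrasts are alike. For levels, Ctla4 was at 232, 393, 274 and 414 CPM in Foxp3+ CD4 cells and Tnfrsf4 at 845, 839, 605 and 857 CPM, above the CD8 members in each library.

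The members were also set against transferred Treg cells that carried Foxp3. At the antibody ratio below -2.2 that mirrors the rule, the Treg-origin side had only 12 cells (6, 2, 1 and 3), and 5 genes were higher in members (0.0979% of 5107) and 12 lower (0.235%), together 0.333%. At a ratio below -1, with 145 Treg-origin cells (40, 37, 38 and 30), 399 genes were higher (6.85% of 5824 tested) and 508 lower (8.72%), together 15.6%, by the same edgeR test. That broader cut gives the values that follow. These Treg-origin cells were also shallower and CD4, so donor, sex, lineage, depth and Treg genotype cannot be told apart in this contrast.

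Higher in members were Y-linked Ddx3y and Eif2s3y (log2 folds 4.81 and 3.78), which mark the male donor, Klrk1 (4.18) and Ly6c2 (3.54) of CD8 effector cells, and Zbtb32 (3.84) and Tm6sf1 (3.64). Klrk1, although lower in members than in matched CD8 cells, was at 0, 13.8, 0 and 4.53 CPM in Treg-origin cells. Lower in members were Xist (-5.57), the steroid-synthesis gene Cyp11a1, the extracellular matrix gene Ecm1, the growth factor gene Areg, which supports tissue repair, the interferon-induced GTPase Iigp1 and Izumo1r. Cyp11a1 was at 0 in all 231 members and at 116, 9.21, 11.1 and 99.6 CPM in Treg-origin cells. Izumo1r was at 23.9, 11.9, 28.6 and 10.5 CPM against 241, 212, 422 and 186 CPM, so its rise over matched CD8 cells left it well below Treg cells in each library.

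Compared with Treg cells the Treg-associated genes ordered differently from one another. Ikzf2 stood at 482, 548, 483 and 276 CPM in Treg-origin cells, above the members in each library (log2 fold -2.02, edgeR adjusted p = 6.53e-10). Tnfrsf18 and Tnfrsf4 were also lower in members (-1.54 and -1.59), with Tnfrsf4 at 919.6, 806, 1010 and 960.1 CPM in Treg-origin cells. Ctla4 was nearer, at 241, 253, 339 and 512 CPM (log2 fold -0.73, edgeR adjusted p = 4.86e-04). Il2ra was at 196, 101, 167 and 204 CPM and was not called (0.40, edgeR adjusted p = 0.126), with CD226KO, TIGITKO and DoubleKO members above and WT members below the Treg-origin cells of their library. Capg was not called either (-0.33, edgeR adjusted p = 0.0789). Il10, the suppressive cytokine, was at 8.53, 14, 9.04 and 6.57 CPM in members and 70.7, 82.9, 128 and 86 CPM in Treg-origin cells (log2 fold -3.19, edgeR adjusted p = 1.71e-09). Gzma was higher in members (2.38) and Gzmb slightly so (0.35, edgeR adjusted p = 7.60e-04).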

How the data were processed

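The deposited files hold UMI counts per gene and barcode and counts of 2 barcoded antibodies (CD45.1, CD45.2), in 1 filtered matrix per library. The authors made these counts with Cell Ranger 3.1.0 on mm10, per the submitters' processing notes. Libraries held 84061005, 85924103, 87743463 and 86932959 UMIs.

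A filter of 500 detected genes or more and no more than 10% of UMIs from mitochondrial genes left 7654, 9045, 10383 and 9058 of 8597, 9835, 11126 and 9863 barcodes. Members, thresholds and gene lists were chosen with earlier results of these data known. The CD45.1 to CD45.2 ratio was read as log2 of counts plus 1. Members and 10 cells per member matched on total UMIs (without replacement, deepest first) were summed per library, scaled to the sum's total as CPM, and compared by the quasi-likelihood test of edgeR 4.0.16 (R 4.3.3) after TMM scaling and filterByExpr, with a block for the library. Genes were called at a Benjamini-Hochberg adjusted p up to 0.05. The block pairs sums of the same library. The interaction with the CD4 contrast and the comparison with Treg-origin cells used the same model. On simulated data for the main contrast (9282 genes, 50 changed per size) it found 56%, 76%, 88% and 96% of changes of 1.5-, 2-, 3- and 4-fold, and 7 of 165 calls were false. The simulated sums were drawn from the kind of count model that edgeR assumes. They therefore do not measure the share of false calls in the real sums. Named genes were the 12 largest folds each way (6 in other contrasts) among calls with 1 sign in all 4 libraries, plus called and abundant members of the lists; a few uncalled ones were named for their role after values were seen. Whether the 3 pooled per sample were recipients is not stated, so the spread between libraries may be technical in part. No doublet caller was used. Alternatives were DESeq2 1.42.0, other filters, matching, thresholds and leaving out each library.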

Additional observations from a re-analysis of the deposited data

How the results depend on the processing

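The main contrast called 640 genes. It called 228 with DESeq2 (72.8% of them higher, against 55.2% with edgeR), 265 with no replicate block, that is, without the pairing by library (80.4% higher), 367 with 1 matched cell per member, 403 with members of at least 2 Foxp3 UMIs, 199 without cells holding other-cell markers, and 267 (without CD226KO) to 611 (without WT) when 1 library was left out. The share of calls that were higher was 42.3% without a filter on low counts and 47.3% without the depth match, and lay between 56.1% and 66.8% in the remaining settings. The other settings stayed within 1.5 times. Of 117 named or listed genes called in the main contrast 40 kept their call under every alternative that gave a value, Ctla4, Ikzf2, Il2ra, Tnfrsf4, Tnfrsf18, Capg and Srgn among them. Without cells holding other-cell markers, Cd69 (log2 fold -0.050) and Smad7 (-0.021) had folds near 0 with the opposite sign. Neither was called there (edgeR adjusted p = 0.971 and 0.994), and the cause was not tested. The interaction with CD4 called 15 genes without the filter and 0 to 4 with 1 library left out. The comparison with Treg-origin cells called 17 genes, 10 without the filter, 53 with no replicate block, 907 at a ratio below -1, 4 to 33 with 1 library left out, and 584, 681, 681 and 782 at a ratio below -1 without WT, CD226KO, TIGITKO and DoubleKO, a setting added after the values were seen. Shares of CD8 cells with Foxp3 fell by construction when thinned (0.335%, 1.28%, 0.521% and 0.354%), and at a ratio above 3 the CD226KO share was 5.37%.

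Depth limits the rare genes: WT has 25 members, and genes such as Lrrc32 and Tpmt rest on few molecules.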

Other observations

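V segments of the T cell receptor chains were looked at after all other values, as a sequence the rule did not use. A Trav segment was found in 24%, 16.2%, 15.4% and 32.7% of members and in 11.9%, 12%, 7.19% and 10.6% of all Foxp3-0 conventional CD8 cells of the 4 libraries, which were not matched for depth and are shallower than the members. A Trbv segment was found in 12%, 10.5%, 9.62% and 12.2% of members and in 13.4%, 10.2%, 9.89% and 11.1% of those cells. In DoubleKO, Trav13-1 was found in 10 of 49 members (20.4%) and in 12 of 3366 Foxp3-0 conventional CD8 cells (0.357%), so 10 of the 22 CD8 cells with this segment (45.5%) carried Foxp3. In CD226KO, Trav10n was found in 7 of 105 members (6.67%) and in 8 of 2495 Foxp3-0 cells (0.321%). Trav10n was also found in 16 CD4 cells of CD226KO, and in 1 member and 9 Foxp3-0 CD8 cells of TIGITKO. Trav13-1 was found in 2 CD4 cells of DoubleKO. These 2 segments were picked for their values out of all Trav and Trbv segments, no test was made, and whether these cells share a precursor was not tested. Of the 10 Trav13-1 members 8 held Igkc, against 5 of the 39 other DoubleKO members (12.8%); 8 of the 10 held Ctla4 and 7 held Ikzf2. Of the 7 Trav10n members of CD226KO 4 held Igkc, against 33 of 98 others (33.7%), and 0 held Xist.

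Both segments lie on chromosome 14 (GRCm38, GENCODE M21, plus strand) in a cluster that exists in near-identical copies, so the sequences are shown to let a reader judge how well counting could separate them. Trav13-1 (chr14:53545014-53545525) differs from its copy Trav13d-1 at 11 of the last 280 transcript bases, and Trav10n (chr14:53122114-53122610) from Trav10d at 2 of 280, marked in capitals. None of the copies Trav13d-1, Trav13n-1, Trav10d and Trav10 had a UMI in any member. Because Trav10n and Trav10d differ at only 2 of these bases, the assignment of Trav10n among its copies is uncertain.
Trav13-1: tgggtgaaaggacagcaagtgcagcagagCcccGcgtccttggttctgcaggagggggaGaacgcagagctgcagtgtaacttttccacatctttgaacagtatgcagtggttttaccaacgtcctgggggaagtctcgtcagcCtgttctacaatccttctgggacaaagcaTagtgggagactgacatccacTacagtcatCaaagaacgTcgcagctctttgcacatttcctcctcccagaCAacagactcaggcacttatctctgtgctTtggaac
Trav10n: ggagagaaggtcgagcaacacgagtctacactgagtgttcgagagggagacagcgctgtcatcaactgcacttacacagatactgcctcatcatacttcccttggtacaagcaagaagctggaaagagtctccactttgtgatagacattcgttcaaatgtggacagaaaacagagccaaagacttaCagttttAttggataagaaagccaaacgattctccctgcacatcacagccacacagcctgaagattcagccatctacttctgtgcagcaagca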
